A study of Homo sapiens with 12 samples.

Results

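Heat shock and chaperonin genes encode the proteins that fold other proteins and keep them from aggregating. In RNA sequencing of 2 human acute myeloid leukaemia cell lines they were taken by gene name, as the HSPA, HSPB, HSPD, HSPE, HSPH and HSP90 genes, the DNAJA, DNAJB and DNAJC genes with a number, the CCT subunit genes with TCP1, and the numbered HSF genes. The patterns matched 72 of the 13881 genes in the deposited table. HSPE1P2, a name with a pseudogene ending, was dropped, which left 71. Of these, 69 reached at least 1 FPKM (a fragment count scaled to transcript length and library depth) in at least 3 libraries and were tested, and DNAJC12 and HSPB7 did not.

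KG-1 and MOLM-14 cells were kept for 96 h with ASLAN003 or with its solvent DMSO, in 4 groups of 3 libraries: KG-1 ASLAN003, KG-1 DMSO, MOLM-14 ASLAN003 and MOLM-14 DMSO. ASLAN003 inhibits dihydroorotate dehydrogenase, a mitochondrial enzyme of pyrimidine synthesis. The labels give no dose. Each line is a single established line, and the labels say that treatments were triplicated but not that the 3 were separate cultures, so the p-values reflect the variation among these 12 libraries, part or all of which may be technical. All changes below are ASLAN003 minus DMSO in log2(FPKM + 1) units, in which changes of weakly expressed genes come out too small. In bulk RNA, fewer cells of a kind and less RNA per cell cannot be told apart.

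HSP70 proteins (HSPA genes) bind and release unfolded chains, and J-domain proteins (DNAJ genes) bring them their clients and set off ATP hydrolysis. HSP90 proteins act later on kinases and receptors, small heat shock proteins hold unfolded proteins, and the barrel-shaped chaperonins, HSP60 with HSP10 in mitochondria and CCT in the cytosol, enclose a chain while it folds. The cytosol, the endoplasmic reticulum (ER) and the mitochondrion have their own members. HSF1 is the main factor that switches on the cytosolic genes after heat, and ER chaperone genes answer to the unfolded protein response.

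Depth, estimated from the steps of low FPKM values, was 17.8 to 19.2 M fragments per library. MOLM-14 ASLAN003 replicate 1 stood apart: on the second principal component it lay at -36.2, against -14.6 and -9.37 for the other libraries of its group. In that group the median SD of a member's log2 value was 0.325, against 0.0901 to 0.140 in the other groups, so members spread most there. Ribosomal protein genes took 15.2% to 16.3% of the listed FPKM in KG-1 ASLAN003, 25.6% to 26.7% in KG-1 DMSO, 22.6% to 27.8% in MOLM-14 ASLAN003 and 33.6% to 34.4% in MOLM-14 DMSO. FPKM is a share of a library. Calls after a rescaling that left out these and some other genes are given in the last section. The part of this shift alone in the results was not tested. The myeloid genes PTPRC, SPI1, CD33, MPO, CEBPA and LYZ were present in all libraries, whereas CD34, reported of KG-1, was at most 0.17 FPKM. Of 14 markers of other cell types, 5 were in the table, and their summed level was 221 to 249.7 FPKM in KG-1 ASLAN003, 56.1 to 60.7 in KG-1 DMSO, 100.0 to 173 in MOLM-14 ASLAN003 and 26.0 to 30.3 in MOLM-14 DMSO. PECAM1, which myeloid cells also carry, averaged 199 ± 9.91 FPKM in KG-1 ASLAN003, 28.6 ± 1.18 in KG-1 DMSO, 124 ± 36.1 in MOLM-14 ASLAN003 and 22.2 ± 3.27 in MOLM-14 DMSO (SD, n = 3 each), and was called higher with ASLAN003 in both lines. KRT8, COL1A1 and EPCAM were not called under treatment in either line, but by limma were higher in KG-1 than in MOLM-14 in DMSO, where KRT8 averaged 21.6 ± 3.16 FPKM in KG-1 and 4.25 ± 0.378 in MOLM-14. CD3D was at most 0.22 FPKM. Of 4 genes of stress at harvest (FOS, JUN, ATF3, DDIT3), FOS rose in KG-1 (1.56 ± 0.41, SE, limma adjusted p = 0.0115), a call lost without KG-1 ASLAN003 replicate 1 (adjusted p = 0.0531) or with KG-1 fitted alone, and JUN rose in KG-1 (0.97 ± 0.22, SE, limma adjusted p = 0.00478) and in MOLM-14 (1.25 ± 0.22, SE, limma adjusted p = 0.00368). The part of these markers in the results was not tested.

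Promoters are shown for some members picked because they hold an element named here, and for HSPE1. They are from RefSeq (GRCh38.p14), 250 bases before to 50 after the annotated start, and 64 of the 71 members had one. HSP90B1, DNAJA1 and HSPA8 were not called with ASLAN003 in either line, and a link between elements and changes was not tested. Capitals in the ER genes HSPA5 and HSP90B1 mark the ER stress element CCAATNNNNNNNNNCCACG on either strand, the sequence bound by ATF6 with NF-Y. Capitals in DNAJA1, DNAJB6 and HSPA8 mark heat shock elements, the alternating repeats bound by HSF1, as 3 repeats (GAANNTTCNNGAA or TTCNNGAANNTTC) and, once in DNAJA1, as 2 (GAANNTTC). Capitals in HSPE1 mark the 204 bases that its window shares with that of HSPD1, whose gene runs the other way.
HSPA5 promoter, chr9:125241294-125241593, minus strand: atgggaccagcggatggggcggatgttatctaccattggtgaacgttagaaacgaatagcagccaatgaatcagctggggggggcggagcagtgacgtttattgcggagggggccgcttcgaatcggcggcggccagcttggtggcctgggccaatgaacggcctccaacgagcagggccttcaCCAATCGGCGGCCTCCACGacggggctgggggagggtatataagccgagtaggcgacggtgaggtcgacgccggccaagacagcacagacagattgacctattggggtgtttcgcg
HSP90B1 promoter, chr12:103930160-103930459, plus strand: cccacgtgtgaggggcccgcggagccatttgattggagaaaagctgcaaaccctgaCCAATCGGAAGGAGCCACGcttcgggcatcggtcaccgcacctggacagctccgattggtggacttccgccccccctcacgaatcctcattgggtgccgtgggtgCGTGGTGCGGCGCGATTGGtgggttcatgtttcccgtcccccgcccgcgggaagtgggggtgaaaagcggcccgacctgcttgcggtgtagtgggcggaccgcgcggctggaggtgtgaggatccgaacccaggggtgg
DNAJA1 promoter, chr9:33025023-33025322, plus strand: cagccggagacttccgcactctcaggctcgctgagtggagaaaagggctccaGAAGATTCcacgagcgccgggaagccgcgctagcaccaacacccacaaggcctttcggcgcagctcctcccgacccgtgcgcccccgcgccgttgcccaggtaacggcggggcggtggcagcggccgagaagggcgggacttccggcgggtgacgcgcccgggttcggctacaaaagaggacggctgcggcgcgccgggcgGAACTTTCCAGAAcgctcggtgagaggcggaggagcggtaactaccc
DNAJB6 promoter, chr7:157336754-157337053, plus strand: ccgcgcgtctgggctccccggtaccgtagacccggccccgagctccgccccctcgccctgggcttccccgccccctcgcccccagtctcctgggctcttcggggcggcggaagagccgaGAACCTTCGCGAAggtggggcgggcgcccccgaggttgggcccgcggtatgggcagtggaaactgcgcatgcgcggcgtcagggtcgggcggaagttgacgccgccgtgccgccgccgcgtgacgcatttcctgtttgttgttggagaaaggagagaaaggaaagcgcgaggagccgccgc
HSPA8 promoter, chr11:123062087-123062386, minus strand: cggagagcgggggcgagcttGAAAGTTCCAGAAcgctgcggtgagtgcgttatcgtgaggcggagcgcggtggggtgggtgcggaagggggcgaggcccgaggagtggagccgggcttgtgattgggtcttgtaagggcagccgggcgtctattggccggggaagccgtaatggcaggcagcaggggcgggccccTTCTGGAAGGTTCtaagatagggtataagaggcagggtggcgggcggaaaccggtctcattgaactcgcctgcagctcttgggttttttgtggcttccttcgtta
HSPE1 promoter, chr2:197500129-197500428, plus strand: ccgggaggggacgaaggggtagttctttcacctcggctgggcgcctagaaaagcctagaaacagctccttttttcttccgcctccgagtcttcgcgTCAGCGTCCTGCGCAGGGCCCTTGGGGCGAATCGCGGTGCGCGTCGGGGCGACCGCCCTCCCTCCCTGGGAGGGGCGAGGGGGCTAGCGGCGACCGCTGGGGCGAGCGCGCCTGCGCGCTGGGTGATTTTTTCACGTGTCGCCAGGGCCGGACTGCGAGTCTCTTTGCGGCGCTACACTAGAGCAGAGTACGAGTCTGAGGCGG
The ER stress element was found in 2 of 64 member promoters (3.12%), HSPA5 and HSP90B1, against 0.0806% of 27305 promoters. In HSPA5 it starts 66 bases before the annotated start, and in HSP90B1 194 and 89 bases before it. The second form of the element, ATTGGNCCACG, was in none of the members' windows and in 0.0549% of all promoters. Heat shock elements of 3 repeats were in 4 members (6.25%), DNAJA1, DNAJB6, HSPA6 and HSPA8, against 0.487% of all promoters. They start 131 bases before the start in DNAJB6 and 230 and 55 bases before it in HSPA8. The form of 2 repeats (GAANNTTC or TTCNNGAA, also counted within 3 repeats) was in 11 members (17.2%), against 13.7% of all promoters. A match is a run of letters, and binding was not measured.

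In KG-1, members moved in both directions with ASLAN003. Of 10 genes taken as ER chaperones after the values were seen, 4 were called higher (40%, against 19.4% of all genes), HSPA5 with the lowest p. That share depends on which genes were taken and is a description only. The largest rise of any member was that of DNAJC4. HSPD1 and HSPE1 of the mitochondrial chaperonin, HSP90AB1 and the import motor gene DNAJC19 were called lower. So were 2 of 8 CCT genes (25%, against 14.3% of all genes). Among these, the calls of DNAJB11, an ER gene, CCT3 and HSP90AB1 were lost under some other settings. By limma (adjusted p under 0.05, over all 13353 genes tested), 19 of 69 members were called (27.5%), against 33.7% of all genes. Of these, 8 were higher (11.6%, against 19.4% of all genes) and 11 lower (15.9%, against 14.3%), so the share called was below that of all genes overall and close to it among lower calls. Their median change was 0.08, against 0.05 over all genes. In 18 members all ASLAN003 libraries lay above all DMSO libraries, and in 22 all lay below, against 31.4% and 24.5% of all genes. Summed over the members, the level was 8634 ± 518 FPKM in ASLAN003 and 9614 ± 211 FPKM in DMSO (SD, n = 3 each), with all ASLAN003 libraries below all DMSO libraries (exact two-sided permutation p = 0.1, the smallest possible). As a share, the members took 1.27% ± 0.0904 of the listed FPKM in ASLAN003 and 1.25% ± 0.0368 in DMSO (SD, n = 3 each; exact two-sided permutation p = 0.9).

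**Figure D1:**
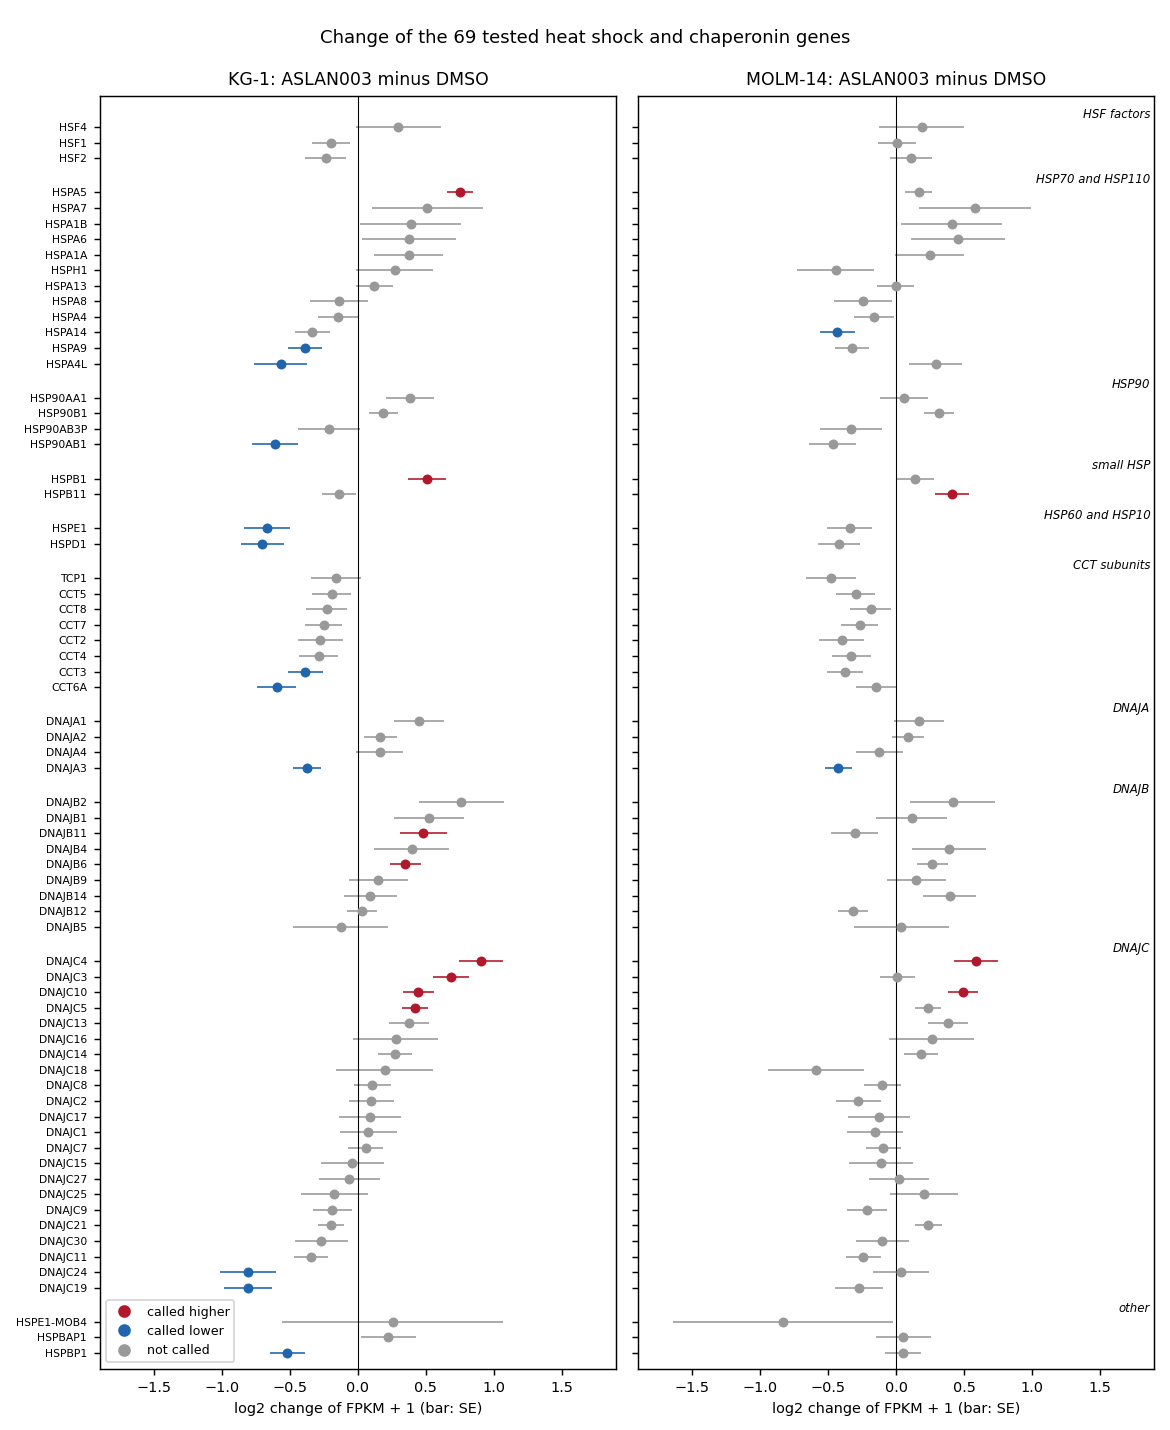
Log2 change (ASLAN003 minus DMSO) of each of the 69 tested members in KG-1 (left) and MOLM-14 (right), grouped by role, with the SE of the limma fit as bars. Red and blue points passed an adjusted p under 0.05 (8 and 11 in KG-1, 3 and 2 in MOLM-14), and grey points did not. HSPD1, HSPE1 and the 8 CCT genes lie left of 0 in both panels.

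Taken as ER members were HSPA5, HSP90B1, HSPA13, DNAJB9, DNAJB11, DNAJB12, DNAJB14, DNAJC1, DNAJC3 and DNAJC10. They were grouped by where their proteins work after the values had been seen. The list may not be complete, and the counts hold for these 10 only. All 10 had a change above 0 in KG-1 and 4 were called, all higher (40%), with a median of 0.17. Over all genes 54.3% lay above 0 and 19.4% were called higher. Above 0 were 6 of 10 after median centring, 7 after quantile normalization and 9 after rescaling, with 3 called under each.

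HSPA5, the ER HSP70 known as BiP (ENSG00000044574.7, chromosome 9, 125234853 to 125241330, minus strand in GRCh38), was at 233, 236 and 265 FPKM in KG-1 ASLAN003 and at 147, 143 and 144 FPKM in KG-1 DMSO. The groups were far apart, and the change of 0.75 ± 0.10 (SE; limma adjusted p = 8.45e-05) was the member change with the lowest p in this line. Under 21 other settings its change was 0.63 to 0.79 and its adjusted p at most 0.000754. In MOLM-14 it was at 122, 125 and 133 FPKM with ASLAN003 and at 101, 109 and 129 FPKM with DMSO. These groups overlapped, and the change was 0.17 ± 0.10 (SE; limma adjusted p = 0.301).

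DNAJC3, a BiP co-chaperone also known as p58IPK, was at 20.3, 20.03 and 21.2 FPKM in KG-1 ASLAN003 and at 11.7, 14.4 and 11.3 FPKM in KG-1 DMSO. It rose by 0.68 ± 0.13 (SE; limma adjusted p = 0.00154). Its MOLM-14 libraries held 12.03, 12.2 and 14.6 FPKM with ASLAN003 and 14.04, 11.9 and 12.5 FPKM with DMSO, which overlap, with a change of 0.0086 ± 0.13 (SE; limma adjusted p = 0.986). DNAJC10, an ER disulphide reductase known as ERdj5, rose in both lines. It was at 65.2, 64.3 and 63.6 FPKM in KG-1 ASLAN003 and at 44.9, 47.9 and 48.4 FPKM in KG-1 DMSO, a change of 0.45 ± 0.11 (SE; limma adjusted p = 0.00889). In MOLM-14 it was at 37.4, 47.04 and 39.4 FPKM with ASLAN003 and at 25.6, 32.4 and 29.2 FPKM with DMSO, a change of 0.49 ± 0.11 (SE; limma adjusted p = 0.0139). The groups did not overlap in either line, but without MOLM-14 DMSO replicate 1 the MOLM-14 change was 0.41 with an adjusted p of 0.0579. The MOLM-14 call was also lost after median centring or quantile normalization and with MOLM-14 fitted alone (limma adjusted p up to 0.123).

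DNAJB11, a secreted BiP co-chaperone known as ERdj3, was at 97.1, 114 and 107 FPKM in KG-1 ASLAN003 and at 77.00, 78.8 and 70.7 FPKM in KG-1 DMSO. Its change was 0.48 ± 0.17 (SE; limma adjusted p = 0.0492), and the call was lost without any single KG-1 library, without MOLM-14 DMSO replicate 3 (adjusted p up to 0.143) and under every other scaling. HSP90B1, the ER HSP90 known as GRP94 whose promoter holds 2 ER stress elements, was at 592, 619 and 731 FPKM in KG-1 ASLAN003 and at 536, 549 and 616 FPKM in KG-1 DMSO. These groups overlapped, and the change was 0.19 ± 0.11 (SE; limma adjusted p = 0.209). In MOLM-14 it was at 415, 411 and 503 FPKM with ASLAN003 and at 343, 342 and 379.7 FPKM with DMSO. These groups did not overlap, but the change of 0.32 ± 0.11 (SE; limma adjusted p = 0.076) missed the threshold.

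**Figure D2:**
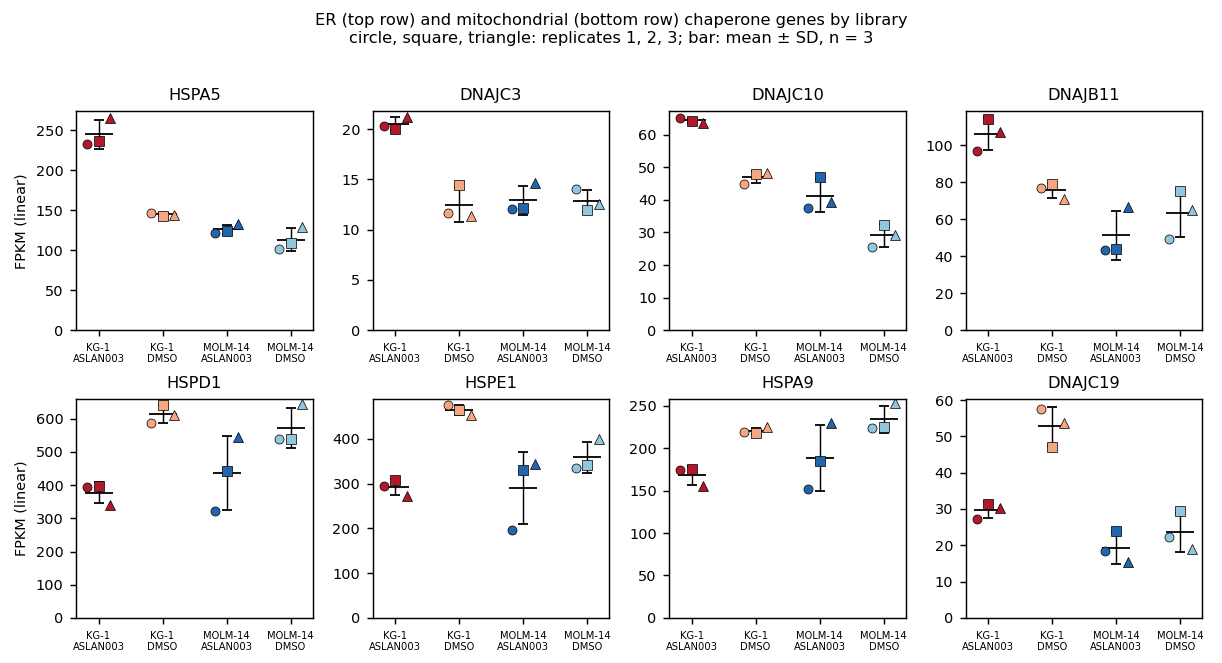
FPKM of 4 ER members (top) and 4 mitochondrial members (bottom) in every library, with the mean and SD of each group (n = 3) as bars. HSPA5 lies at 233 to 265 FPKM in KG-1 ASLAN003, above all other libraries, and HSPD1 and HSPE1 lie lower in KG-1 ASLAN003 than in KG-1 DMSO with no overlap.

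Taken as mitochondrial members were HSPA9, HSPD1, HSPE1, DNAJA3, DNAJC11, DNAJC15, DNAJC19 and DNAJC30, grouped in the same way. This list too may not be complete, and the counts hold for these 8 only. DNAJC4, a J-domain gene in neither list, rose by 0.91 in KG-1 and 0.59 in MOLM-14. Had it been taken as mitochondrial, not every gene of this list would lie below 0. All 8 had a change below 0 in both lines, also under every other scaling of the values. In KG-1 5 were called lower (62.5%, against 14.3% of all genes), with a median of -0.38. In MOLM-14 1 was (12.5%, against 3.33% of all genes), with a median of -0.30. Without MOLM-14 ASLAN003 replicate 1 the MOLM-14 median was -0.16 and 7 of 8 lay below 0, DNAJC30 being at 0.11. Over all genes 45.6% lay below 0 in KG-1 and 40.1% in MOLM-14.

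HSPD1 (HSP60; ENSG00000144381.16, chromosome 2, 197486581 to 197516737, minus strand in GRCh38) was at 394, 398 and 340.0 FPKM in KG-1 ASLAN003 and at 588, 641 and 611 FPKM in KG-1 DMSO. It fell by 0.70 ± 0.16 on the log2 scale (SE; limma adjusted p = 0.00395), and no left-out library or other setting ended the call. HSPE1 (HSP10; ENSG00000115541.10, chromosome 2, 197499994 to 197503457, plus strand), the lid of the HSP60 barrel, was at 295, 307 and 273 FPKM in KG-1 ASLAN003 and at 474, 465 and 453 FPKM in KG-1 DMSO. Its change was -0.67 ± 0.17 (SE; limma adjusted p = 0.00835), which also held under every other setting. Together HSP60 and HSP10 transcripts averaged 669 ± 49.2 FPKM in KG-1 ASLAN003 and 1077 ± 25.1 FPKM in KG-1 DMSO (SD, n = 3 each; exact two-sided permutation p = 0.1, the smallest that 3 against 3 allow).

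The 2 genes lie head to head on chromosome 2, and their annotated spans overlap on opposite strands. The library kit keeps the strand, but the sources used here do not state whether counting used it. The readthrough transcript HSPE1-MOB4 holds the HSPE1 sequence, so reads may be divided between them, and its own values, 9.17 to 19.8 FPKM in KG-1 ASLAN003 and 9.29 to 14.4 FPKM in KG-1 DMSO, are uncertain. In MOLM-14 HSPD1 was at 321, 444 and 544 FPKM with ASLAN003 and at 539.7, 538 and 643 FPKM with DMSO, and HSPE1 at 197, 329 and 344 FPKM and at 335, 342 and 398 FPKM. Replicate 1 was the lowest ASLAN003 library for both. Neither change was called. That of HSPD1 was -0.42 ± 0.16 (SE; limma adjusted p = 0.0964) and that of HSPE1 -0.34 ± 0.17 (SE; limma adjusted p = 0.205), and without that library they were -0.22 and -0.09 on the log2 scale.

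HSPA9, the mitochondrial HSP70 known as mortalin, was at 174, 176 and 155 FPKM in KG-1 ASLAN003 and at 219.6, 218 and 225 FPKM in KG-1 DMSO. The change of -0.39 ± 0.13 (SE; limma adjusted p = 0.0295) was called, but the call was lost without any single KG-1 library (adjusted p up to 0.0976). DNAJC19, a subunit of the motor that pulls proteins into the mitochondrion, was at 27.2, 31.5 and 30.1 FPKM in KG-1 ASLAN003 and at 57.7, 47.1 and 53.6 FPKM in KG-1 DMSO. Its change was -0.81 ± 0.18 (SE; limma adjusted p = 0.00373), the most negative of any member in this line. DNAJA3, the mitochondrial J-protein known as TID1, fell in both lines. It was at 34.2, 30.8 and 31.4 FPKM in KG-1 ASLAN003 and at 46.2, 38.1 and 41.6 FPKM in KG-1 DMSO, a change of -0.37 ± 0.10 (SE; limma adjusted p = 0.013). In MOLM-14 it was at 41.04, 45.2 and 42.5 FPKM with ASLAN003 and at 61.4, 54.6 and 57.8 FPKM with DMSO, a change of -0.42 ± 0.10 (SE; limma adjusted p = 0.0167). The groups did not overlap in either line, but the adjusted p was 0.0679 without KG-1 DMSO replicate 1 and 0.0655 without MOLM-14 DMSO replicate 1. With MOLM-14 fitted alone the limma adjusted p of DNAJA3 was 0.093.

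CCT is a ring chaperonin of 8 different subunits, needed above all for actin and tubulin. Its members were at similar levels, from 207 (CCT2) to 459 (TCP1) mean FPKM in KG-1 DMSO, a spread of 2.22-fold. All 8 genes had a change below 0 in both lines, also under every other scaling. As said above, median centring and rescaling lower the changes, so they could not turn these signs. In KG-1 2 were called lower (25%, against 14.3% of all genes), and the median change was -0.26. CCT6A was at 213, 242 and 206 FPKM in KG-1 ASLAN003 and at 325, 340.2 and 335 FPKM in KG-1 DMSO, a change of -0.60 ± 0.15 (SE; limma adjusted p = 0.00702) that held under every other setting. CCT3 was at 282, 268 and 233 FPKM in KG-1 ASLAN003 and at 354, 353 and 317 FPKM in KG-1 DMSO, a change of -0.39 ± 0.13 (SE; limma adjusted p = 0.0354). This call was lost after quantile normalization, with no trend and no robust estimation, and without any one of KG-1 ASLAN003 replicates 2 and 3 and KG-1 DMSO replicates 1 and 2 (adjusted p up to 0.124).

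The other six CCT genes were not called in KG-1, with changes between -0.29 (CCT4) and -0.16 (TCP1). In 7 of the 8 all ASLAN003 libraries lay below all DMSO libraries, as in 24.5% of all genes. The exception was TCP1, at 416, 459 and 362 FPKM in ASLAN003 and at 465, 452 and 461 FPKM in DMSO. The count of CCT calls in KG-1 depended on the spread set by the MOLM-14 libraries, with which the variance is shared. It was 5 with KG-1 fitted alone (CCT2, CCT3, CCT4, CCT6A and CCT7), and 6 without MOLM-14 ASLAN003 replicate 1, against 19.8% and 17.1% of all genes called lower under these settings. Summed over the subunits, CCT transcripts averaged 2090.0 ± 187 FPKM in KG-1 ASLAN003 and 2545 ± 46.6 FPKM in KG-1 DMSO (SD, n = 3 each; exact two-sided permutation p = 0.1, the smallest possible). In MOLM-14 the sum was 1700.4, 2549 and 2769 FPKM with ASLAN003 and 2779, 2783 and 2995 FPKM with DMSO. Replicate 1 lay far below the rest, and no subunit was called, with a median of -0.31 and of -0.11 without that library, when 6 of 8 lay below 0.

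**Figure D3:**
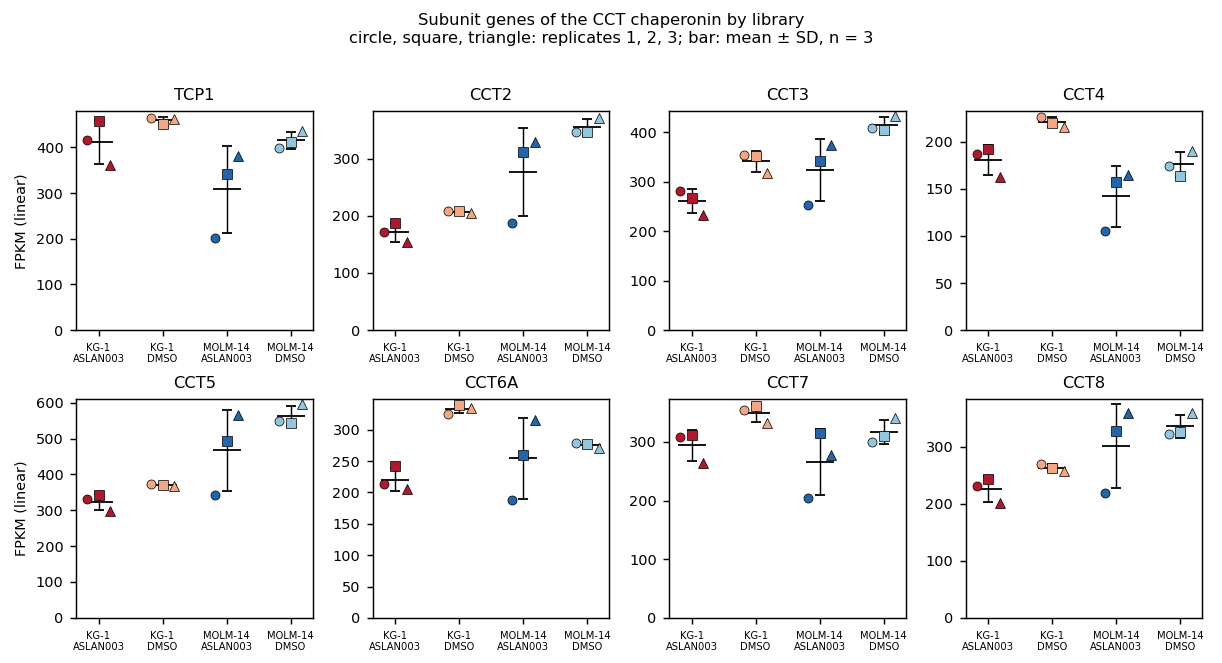
FPKM of the 8 CCT subunit genes in every library, with the mean and SD of each group (n = 3) as bars. In KG-1 the ASLAN003 libraries lie below the DMSO libraries for every subunit but TCP1. In MOLM-14 the ASLAN003 circle, replicate 1, is the lowest MOLM-14 library in every panel.

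Among the cytosolic HSP90 genes, the constitutive and the inducible gene differed in the sign of their change. HSP90AB1 (HSP90 beta, constitutive; ENSG00000096384.19, chromosome 6, 44246166 to 44253888, plus strand) was at 1123, 1016 and 963 FPKM in KG-1 ASLAN003 and at 1631, 1609 and 1482 FPKM in KG-1 DMSO. The change was -0.61 ± 0.17 (SE; limma adjusted p = 0.015). It was 0.01 (adjusted p = 0.963) after quantile normalization, and the call was lost without KG-1 ASLAN003 replicate 3 or KG-1 DMSO replicate 1 (adjusted p up to 0.0534). HSP90AA1 (HSP90 alpha, inducible) was at 599, 725 and 557 FPKM in KG-1 ASLAN003 and at 465, 472 and 497 FPKM in KG-1 DMSO. The groups did not overlap, but its change of 0.38 ± 0.18 (SE; limma adjusted p = 0.115) did not pass. With KG-1 fitted alone its adjusted p was 0.0119. The unequal changes of the 2 genes were not tested against each other.

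Cytosolic HSP70 genes did not pass in KG-1. HSPA8 (HSC70), the constitutive gene and the highest member in 3 of the 4 groups, was at 1277, 1174 and 997 FPKM in KG-1 ASLAN003 and at 1318, 1332 and 1141 FPKM in KG-1 DMSO. The groups overlapped and the change was -0.14 ± 0.21 (SE; limma adjusted p = 0.663), but after quantile normalization it was 0.51 (adjusted p = 0.0467), so no direction is given for it. HSPA1B, the heat-inducible HSP70, was at 13.3, 10.99 and 10.9 FPKM in KG-1 ASLAN003 and at 8.96, 10.4 and 7.05 FPKM in KG-1 DMSO, a change of 0.39 ± 0.37 (SE; limma adjusted p = 0.458). Its near-identical copy HSPA1A reached no more than 1.52 FPKM, and since reads may be divided between them, both values are uncertain. HSPA4, a nucleotide exchange factor of HSP70, had a change of -0.14 ± 0.15 (SE; limma adjusted p = 0.491), and HSPH1 (HSP110), of the same family, 0.27 ± 0.28 (SE; limma adjusted p = 0.501). HSPA4L, a further member of that family, was at 9.09, 10.6 and 8.50 FPKM in KG-1 ASLAN003 and at 14.5, 13.8 and 14.7 FPKM in KG-1 DMSO. The change of -0.57 ± 0.20 (SE; limma adjusted p = 0.042) was called, but not without any single KG-1 library or without MOLM-14 DMSO replicate 1 or 2 (adjusted p up to 0.119).

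HSPB1 (HSP27), an actin-binding small heat shock protein, was at 428, 398 and 369 FPKM in KG-1 ASLAN003 and at 308, 293 and 241 FPKM in KG-1 DMSO. It changed by 0.51 ± 0.14 (SE; limma adjusted p = 0.0149), a call lost without KG-1 ASLAN003 replicate 1 or KG-1 DMSO replicate 3 (adjusted p up to 0.0712). HSPBP1, an HSP70 nucleotide exchange factor taken in by its name, was at 51.2, 38.2 and 41.6 FPKM in KG-1 ASLAN003 and at 67.4, 63.5 and 57.2 FPKM in KG-1 DMSO, and changed by -0.52 ± 0.13 (SE; limma adjusted p = 0.00817).

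**Figure D4:**
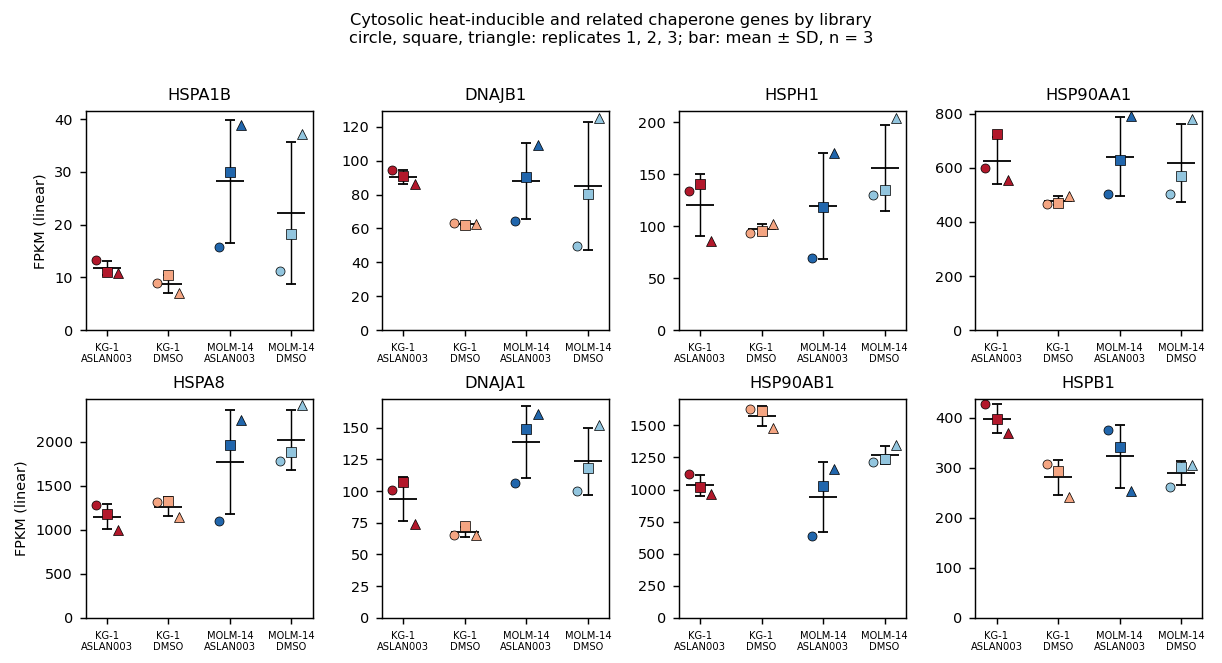
FPKM of 8 cytosolic chaperone genes in every library, with the mean and SD of each group (n = 3) as bars. HSP90AB1 is lower in KG-1 ASLAN003 than in KG-1 DMSO and DNAJB1 higher, with no overlap. In MOLM-14 the triangle, replicate 3, is the highest library of its group for HSPA1B, DNAJB1, HSPH1 and HSP90AA1 in both treatments.

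Of the 35 J-domain genes tested, 6 were called higher (17.1%, against 19.4% of all genes) and 3 lower (8.57%, against 14.3%) in KG-1, with a median change of 0.11. DNAJC4 was at 48.7, 43.6 and 62.3 FPKM in KG-1 ASLAN003 and at 28.5, 25.98 and 25.8 FPKM in KG-1 DMSO. Its change of 0.91 ± 0.16 (SE; limma adjusted p = 0.000926) was the largest rise of any member. In MOLM-14 it was at 39.8, 45.7 and 29.1 FPKM with ASLAN003 and at 23.9, 24.8 and 25.4 FPKM with DMSO, again without overlap, a change of 0.59 ± 0.16 (SE; limma adjusted p = 0.0322). The MOLM-14 call was lost without any 1 of 5 libraries, all but ASLAN003 replicate 3 (adjusted p up to 0.0948). Median centring, quantile normalization and fitting MOLM-14 alone ended it too (limma adjusted p up to 0.124). The annotated span of DNAJC4 overlaps that of NUDT22 on the same strand, so reads may be divided between them.

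DNAJC5, the cysteine string protein of secretory vesicles, changed by 0.42 ± 0.10 (SE; limma adjusted p = 0.00492) in KG-1. DNAJB6, a suppressor of protein aggregation whose promoter holds a heat shock element of 3 repeats, was at 63.6, 80.4 and 71.9 FPKM in KG-1 ASLAN003 and at 57.1, 54.3 and 56.8 FPKM in KG-1 DMSO. Its change of 0.35 ± 0.11 (SE; limma adjusted p = 0.0322) was called, but not under any other scaling or without any one of 5 KG-1 libraries, all but ASLAN003 replicate 1 (adjusted p up to 0.134). DNAJC24, which takes part in making diphthamide, was at 2.94, 2.43 and 2.88 FPKM in KG-1 ASLAN003 and at 4.89, 5.68 and 6.14 FPKM in KG-1 DMSO, a change of -0.81 ± 0.20 (SE; limma adjusted p = 0.00887). The heat-inducible HSP70 partners DNAJB1 (HSP40) and DNAJA1 did not overlap between the KG-1 groups. DNAJB1 was at 94.5, 90.7 and 86.3 FPKM in ASLAN003 and at 63.3, 61.9 and 62.6 FPKM in DMSO, a change of 0.52 ± 0.26 (SE; limma adjusted p = 0.141), and DNAJA1 at 101, 107 and 74.1 FPKM and at 65.3, 72.1 and 65.4 FPKM, a change of 0.45 ± 0.18 (SE; limma adjusted p = 0.0787). Both passed with KG-1 fitted alone (limma adjusted p = 0.000513 for DNAJB1 and 0.0209 for DNAJA1), where the wide spread of MOLM-14 does not enter.

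The HSF genes were not called in either line. HSF1 was at 35.9, 31.01 and 26.9 FPKM in KG-1 ASLAN003 and at 35.8, 37.1 and 34.7 FPKM in KG-1 DMSO, a change of -0.20 ± 0.14 (SE; limma adjusted p = 0.295). HSF2 was at 21.1, 22.3 and 19.1 FPKM in KG-1 ASLAN003 and at 23.9, 25.1 and 25.1 FPKM in KG-1 DMSO, a change of -0.24 ± 0.15 (SE; limma adjusted p = 0.255). In MOLM-14 HSF1 averaged 69.5 ± 5.83 FPKM with ASLAN003 and 69.9 ± 12.1 FPKM with DMSO (SD, n = 3 each), and the change was 0.003 ± 0.14 (SE; limma adjusted p = 1). HSF activity depends on the protein and was not measured.

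In MOLM-14, whose ASLAN003 libraries spread most, few heat shock genes were called. A gene not called there is not shown to be unchanged. By limma 5 of 69 were called (7.25%), against 13.0% of all genes, with 3 higher (4.35%, against 9.69% of all genes) and 2 lower (2.90%, against 3.33%). Their median change was 0.003, against 0.08 over all genes, and in 9 members all ASLAN003 libraries lay above all DMSO libraries and in 9 below, against 17.7% and 8.17% of all genes. Called in both lines were DNAJC10 and DNAJC4, higher, and DNAJA3, lower. The share of all genes called in both lines is not given here, so no agreement between the lines is read from these. HSPB11, known as the ciliary transport protein IFT25, was at 22.7, 23.3 and 20.7 FPKM with ASLAN003 and at 15.1, 19.6 and 15.01 FPKM with DMSO, a change of 0.41 ± 0.12 (SE; limma adjusted p = 0.0451). HSPA14, a ribosome-associated HSP70, was at 18.6, 19.8 and 23.7 FPKM with ASLAN003 and at 27.98, 26.3 and 30.4 FPKM with DMSO, a change of -0.43 ± 0.13 (SE; limma adjusted p = 0.0415). Neither call held over the left-out libraries. HSPB11 passed only when MOLM-14 ASLAN003 replicate 3 or MOLM-14 DMSO replicate 2 was left out (adjusted p up to 0.141 otherwise), and HSPA14 only when KG-1 ASLAN003 replicate 2 or 3 or MOLM-14 ASLAN003 replicate 3 was (up to 0.124 otherwise).

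The number of MOLM-14 calls rested on single libraries. It was 14 (4 higher, 10 lower) without ASLAN003 replicate 3, when 12.6% of all genes were called higher and 4.80% lower. It was 1 without DMSO replicate 1 and 2 without DMSO replicate 3, when 8.49% and 8.94% of all genes were called. It was 3 without KG-1 ASLAN003 replicate 1, any KG-1 DMSO library, MOLM-14 ASLAN003 replicate 1 or 2 or MOLM-14 DMSO replicate 2, when 8.01% to 12.8% of all genes were. With MOLM-14 fitted alone limma called none, against 2.59% of all genes, and 18 had an unadjusted p under 0.05 in the fit of both lines. After median centring there were 8 calls, all lower, against 6.90% of all genes called lower.

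For the heat-inducible genes HSPA1B, DNAJB1 and HSPH1 the libraries within a MOLM-14 group were further apart than the means of its treatments. HSPA1B was at 15.8, 30.1 and 38.8 FPKM with ASLAN003 and at 11.1, 18.1 and 37.2 FPKM with DMSO. DNAJB1 was at 64.4, 90.3 and 109 FPKM with ASLAN003 and at 49.5, 80.4 and 125 FPKM with DMSO. HSPH1 was at 69.2, 119 and 171 FPKM with ASLAN003 and at 129.7, 135 and 204 FPKM with DMSO. The library numbered 3 was the highest and the library numbered 1 the lowest for these genes in both treatments. The KG-1 libraries with DMSO lay close together for DNAJB1, between 61.9 and 63.3 FPKM. What sets the MOLM-14 libraries apart was not tested, and the labels do not say that a number marks a shared culture or day.

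The difference between the lines' changes (KG-1 change minus MOLM-14 change) was tested for each member. It was called for 2 of 69 (2.90%), against 9.94% of all genes, both higher (against 5.05%). HSPA5 rose more in KG-1, with a difference of 0.59 ± 0.14 (SE; limma adjusted p = 0.019), and so did DNAJC3, with 0.68 ± 0.19 (SE; limma adjusted p = 0.038). The HSPA5 call was lost without KG-1 DMSO replicate 2 (adjusted p = 0.0520). DNAJC3 was lost without any 1 of 9 libraries (adjusted p up to 0.0993), but held without MOLM-14 ASLAN003 replicate 1. For HSPD1 the difference was -0.28 ± 0.22 (SE; limma adjusted p = 0.476), and for CCT6A -0.45 ± 0.21 (SE; limma adjusted p = 0.198). Without MOLM-14 ASLAN003 replicate 1, 10 members were called, against 17.7% of all genes: the same 2 higher, and CCT6A, DNAJC21, DNAJC24, HSP90AB1, HSPA4L, HSPBP1, HSPD1 and HSPE1 lower. Over the settings run, the difference for HSPD1, HSPE1 and CCT6A was called only with that library left out.

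The lines differed in these genes before treatment. In DMSO, KG-1 minus MOLM-14 was called by limma for 27 of 69 members (39.1%), against 49.2% of all genes, with 14 higher in KG-1 (20.3%, against 27.1%) and 13 lower (18.8%, against 22.1%). All 3 HSF genes were called: HSF1 was at 35.8, 37.1 and 34.7 FPKM in KG-1 and at 75.3, 78.4 and 56.1 FPKM in MOLM-14, a difference of -0.93 ± 0.14 (SE; limma adjusted p = 0.000124). HSF2 was higher in KG-1 (0.56 ± 0.15, SE, limma adjusted p = 0.00867), and HSF4 lower (-1.32 ± 0.31, SE, limma adjusted p = 0.0036). Among the inducible genes HSPA1B was at 8.96, 10.4 and 7.05 FPKM in KG-1 and at 11.1, 18.1 and 37.2 FPKM in MOLM-14, a difference of -1.09 ± 0.37 (SE; limma adjusted p = 0.0261) that was lost without KG-1 DMSO replicate 1 or 3 or MOLM-14 DMSO replicate 3 (adjusted p up to 0.118). DNAJA1 was lower in KG-1 by the same test (-0.84 ± 0.18, SE, limma adjusted p = 0.00227), as was HSPA7, a pseudogene close in sequence to HSPA6 and so uncertain (-1.41 ± 0.41, SE, limma adjusted p = 0.0122; adjusted p = 0.0574 without MOLM-14 DMSO replicate 1).

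Higher in KG-1 were DNAJC19, at 57.7, 47.1 and 53.6 FPKM in KG-1 and at 22.2, 29.5 and 18.9 FPKM in MOLM-14, a difference of 1.15 ± 0.18 (SE; limma adjusted p = 0.000167), and HSPA4L (1.00 ± 0.20, SE, limma adjusted p = 0.00106). DNAJC5 (0.89 ± 0.10, SE, limma adjusted p = 7.69e-06), HSPBP1 (0.79 ± 0.13, SE, limma adjusted p = 0.000275) and DNAJC1 (0.77 ± 0.21, SE, limma adjusted p = 0.00796), an ER membrane J-protein, were higher too. Of the ER members, grouped after the values were seen, 8 of 10 were called, against 49.2% of all genes. Higher in KG-1 were 6 of the 10, HSPA5 and HSP90B1 included, against 27.1% of all genes. Of the CCT genes, CCT2 was lower in KG-1, at 208, 208 and 204 FPKM against 346, 347 and 372 FPKM in MOLM-14, and so was CCT5, at 372, 371 and 368 FPKM against 548, 544 and 595 FPKM. The other six CCT genes and both HSP60 and HSP10 genes were not called.

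Partner genes in the same pathways were counted from lists of their own. Of 23 co-chaperones of HSP70 and HSP90, 4 rose and 3 fell in KG-1 (median change -0.15), and 1 rose in MOLM-14 (median -0.02). The shares called were 30.4% in KG-1, against 33.7% of all genes, and 4.35% in MOLM-14, against 13.0%. BAG1, an HSP70 nucleotide exchange factor, was at 64.9, 46.5 and 52.5 FPKM in KG-1 ASLAN003 and at 98.9, 99.3 and 78.1 FPKM in KG-1 DMSO, a change of -0.75 ± 0.14 (SE; limma adjusted p = 0.00123). The others called in KG-1 were BAG6, CDC37L1 and UNC45A, higher, and CDC37 and FKBP5, lower. In KG-1 the CDC37L1 call was lost without any single KG-1 library (adjusted p up to 0.0820) and with the replicate block, median centring or quantile normalization (up to 0.0965), CDC37 without KG-1 ASLAN003 replicate 2 or KG-1 DMSO replicate 2 (up to 0.0621), and FKBP5 without KG-1 ASLAN003 replicate 3 or KG-1 DMSO replicate 2 (up to 0.0509). BAG6 was lost after median centring. The difference between the lines was called for BAG6 (0.46 ± 0.12, SE, limma adjusted p = 0.0275) and FKBP5 (-0.64 ± 0.18, SE, limma adjusted p = 0.0441). These calls were lost without any 1 of 6 libraries for BAG6 and of 10 for FKBP5. CHORDC1, an HSP90 partner, changed by 0.59 ± 0.16 (SE; limma adjusted p = 0.0122) in KG-1, and CDC37L1 by 0.56 ± 0.13 (SE; limma adjusted p = 0.0159) in MOLM-14. The CHORDC1 call was lost without KG-1 ASLAN003 replicate 1 or 2 or KG-1 DMSO replicate 1 (adjusted p up to 0.0553), and the CDC37L1 call without MOLM-14 DMSO replicate 2 (0.0590). Median centring, quantile normalization and fitting MOLM-14 alone also ended the MOLM-14 call of CDC37L1 (limma adjusted p up to 0.139).

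Of 12 genes of prefoldin, which hands actin and tubulin to CCT, and of other CCT partners, 4 fell in KG-1 and 2 in MOLM-14, and none rose in either line. The shares called lower were 33.3%, against 14.3% of all genes, and 16.7%, against 3.33%. PDCD5 was at 137, 139 and 127 FPKM in KG-1 ASLAN003 and at 215, 226 and 222 FPKM in KG-1 DMSO, a change of -0.72 ± 0.19 (SE; limma adjusted p = 0.0129). UXT and PFDN6 fell as well, but PFDN6 not without KG-1 ASLAN003 replicate 2 (adjusted p = 0.0556). URI1 changed by -0.54 ± 0.16 (SE; limma adjusted p = 0.018) in KG-1 (adjusted p up to 0.0756 without KG-1 ASLAN003 replicate 1 or KG-1 DMSO replicate 2). UXT fell in MOLM-14 (-0.39 ± 0.07, SE, limma adjusted p = 0.00527), as did PFDN6 (-0.39 ± 0.11, SE, limma adjusted p = 0.0398), whose call was lost without any 1 of 9 libraries. With MOLM-14 fitted alone the UXT call was lost (limma adjusted p = 0.0655). The medians of this list were -0.07 in both lines.

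Of 19 further ER folding genes, 5 rose and 1 fell in KG-1 (median 0.30), and 2 fell in MOLM-14 (median 0.08). The share called higher in KG-1 was 26.3%, against 19.4% of all genes, and that called lower in MOLM-14 10.5%, against 3.33%. SEL1L, of the complex that removes misfolded ER proteins, was at 37.2, 42.3 and 35.1 FPKM in KG-1 ASLAN003 and at 14.8, 19.7 and 24.1 FPKM in KG-1 DMSO, a change of 0.96 ± 0.17 (SE; limma adjusted p = 0.000813), and its difference between the lines was called (1.17 ± 0.24, SE, limma adjusted p = 0.0093). ERN1, the gene of the stress sensor IRE1, changed by 0.81 ± 0.26 (SE; limma adjusted p = 0.0291) in KG-1, a call lost without any KG-1 library but DMSO replicate 2 (adjusted p up to 0.125). XBP1, the unfolded protein response factor whose transcript IRE1 splices, fell in both lines. It was at 87.6, 85.5 and 81.4 FPKM in KG-1 ASLAN003 and at 130.04, 129 and 103 FPKM in KG-1 DMSO (-0.50 ± 0.13, SE, limma adjusted p = 0.00898), and at 88.5, 112 and 109 FPKM with ASLAN003 and 156, 183 and 199 FPKM with DMSO in MOLM-14 (-0.79 ± 0.13, SE, limma adjusted p = 0.00201). The other genes called in KG-1, all higher, were PDIA3, PDIA4 and SDF2. PDIA4 was lost after median centring, and SDF2 without KG-1 ASLAN003 replicate 3 or KG-1 DMSO replicate 1 or 2 (adjusted p up to 0.0765). DDIT3 (CHOP), a late target of the response, was not called in either line (0.35 ± 0.18, SE, limma adjusted p = 0.151 in KG-1). CANX, calnexin, fell in MOLM-14 (-0.32 ± 0.09, SE, limma adjusted p = 0.0431), a call lost without any 1 of 9 libraries. Splicing of XBP1 is not visible in a value per gene.

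Of 11 genes of mitochondrial folding and proteolysis, 4 fell and none rose in KG-1 (median -0.32), and 1 fell in MOLM-14 (median -0.07). The shares called lower were 36.4%, against 14.3% of all genes, and 9.09%, against 3.33%. TRAP1, the mitochondrial HSP90, was at 62.3, 53.2 and 62.6 FPKM in KG-1 ASLAN003 and at 179, 165 and 141 FPKM in KG-1 DMSO. Its change of -1.43 ± 0.15 (SE; limma adjusted p = 1.42e-05) was larger than that of any member, and it differed between the lines (-0.99 ± 0.21, SE, limma adjusted p = 0.0109). In MOLM-14 it was at 90.3, 137 and 129 FPKM with ASLAN003 and at 166, 146 and 163 FPKM with DMSO, a change of -0.43 ± 0.15 (SE; limma adjusted p = 0.0722). CLPP and LONP1, of mitochondrial proteases, also fell in KG-1. CLPP was lost without any 1 of 5 libraries (KG-1 ASLAN003 replicates 2 and 3, KG-1 DMSO replicates 1 and 2, and MOLM-14 DMSO replicate 2; adjusted p up to 0.125), and LONP1 without any 1 of 4 (KG-1 ASLAN003 replicates 2 and 3 and KG-1 DMSO replicates 1 and 3; up to 0.0851). AFG3L2, a mitochondrial protease, was at the threshold in KG-1 (-0.33 ± 0.12, SE, limma adjusted p = 0.05), with an adjusted p of up to 0.212 without 1 library. In MOLM-14 AFG3L2 changed by 0.38 ± 0.12 (SE, limma adjusted p = 0.0564). Its difference between the lines was called (-0.72 ± 0.17, SE, limma adjusted p = 0.0208). That call was lost with the replicate block and without KG-1 ASLAN003 replicate 1 or KG-1 DMSO replicate 1 (up to 0.061). TIMM44, of the import motor, fell in MOLM-14 (-0.45 ± 0.10, SE, limma adjusted p = 0.0134). It was at 0.0512 without DMSO replicate 3 and at 0.0811 with MOLM-14 fitted alone.

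The members whose levels followed HSPD1 most closely over the 12 libraries were HSPA9 (Pearson r = 0.961), CCT6A (0.920) and HSPE1 (0.907). Within the 6 libraries of KG-1 these were 0.987, 0.985 and 0.988, and within those of MOLM-14 0.993, 0.855 and 0.956. Such closeness was not particular to them. In MOLM-14 CCT3 (0.979), HSP90AB1 (0.978) and CCT5 (0.977) were above CCT6A and HSPE1, and in KG-1 HSP90AB1 was at 0.973. Other members ran the other way, as DNAJC4 did (-0.99 in KG-1 and -0.76 in MOLM-14). These values are a description of libraries that share a treatment and a scaling, and in MOLM-14 they include replicate 1 of ASLAN003, the lowest MOLM-14 library for HSPD1, HSPA9, HSPE1 and CCT6A.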

How the data were processed

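Per the submitters' processing notes, the tools were RSEM 1.2.25, STAR 2.4.2a and bcl2fastq 2.17.1.14, and the builds hg38 and GRCh38. None of these sources names the gene annotation. The values in the table the authors deposited are log2(FPKM + 1), as judged from its name and from the 0.01 steps that the low values make after back-transformation, and FPKM was recovered from them. No read counts were used: depth was estimated from the steps of low FPKM values (78.1% to 89.9% of these values came within 0.15 of whole fragments), and precision was taken from the spread between libraries.

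With limma 3.58.1 in R 4.3.3, 4 group means were fitted to log2(FPKM + 1), pseudocount 1, for 13353 genes that reached 1 FPKM in 3 or more libraries, and variances were moderated robustly along a trend with the mean (eBayes). Two-sided p-values were adjusted by Benjamini-Hochberg over all of these genes, and a gene was called at an adjusted p under 0.05. SE is that of the moderated fit. Sums over a class were compared by an exact permutation test.

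The members and lists were chosen with earlier results of these data known, and the groups by cell compartment after the values were seen. Named are HSF1, HSF2, the main HSP and CCT genes, up to 4 called members per role class and line (at least 5 FPKM in 1 group), up to 5 per direction for the contrasts between lines, and up to 2 called genes per pathway list and line. Members, pathway genes and markers named beyond these were chosen after their values were seen. Positions are from GENCODE 29 (GRCh38; 13784 of 13881 identifiers matched) and promoters from RefSeq. Alternatives were another pseudocount (0.1), other filters on low values (none, or 5 FPKM), median centring, quantile normalization, FPKM rescaled to an equal sum outside mitochondrial, small RNA, ribosomal RNA, histone and ribosomal protein genes, a separate fit per line, eBayes without trend or robust estimation, a block for replicate number, and leaving out libraries one at a time. The code was tested on simulated data.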

Additional observations from a re-analysis of the deposited data

Results flagged for a closer look

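HSPA5, the ER HSP70, stood out because its change with ASLAN003 differed between the lines, as tested by the interaction in limma. The log2 change in KG-1 minus that in MOLM-14 was 0.587 ± 0.138 (SE; adjusted p = 0.0190), and its KG-1 ASLAN003 libraries were the highest of all 12. The call was lost without KG-1 DMSO replicate 2, with a difference of 0.578 and an adjusted p of 0.0520.

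DNAJC3, a co-chaperone of HSPA5, stood out by the same test, with a difference of 0.675 ± 0.186 (SE; limma adjusted p = 0.0380). The call was lost with the replicate number as a block (adjusted p = 0.0762) and without any 1 of 9 libraries (up to 0.0993), and the difference lay between 0.614 and 0.776 over all 20 other settings.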

How the results depend on the processing

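The call of 11 of 19 members in KG-1 held under all 21 other settings (CCT6A, DNAJC3, DNAJC4, DNAJC5, DNAJC10, DNAJC19, DNAJC24, HSPA5, HSPBP1, HSPD1 and HSPE1), and that of none of the 5 in MOLM-14. Over the left-out libraries, KG-1 gave 12 to 26 calls (5 to 9 higher, 6 to 17 lower), with 12 without KG-1 DMSO replicate 1 and 17 lower without MOLM-14 ASLAN003 replicate 1. MOLM-14 gave 1 to 14 (1 to 4 higher, 0 to 10 lower), the difference between the lines 1 to 10 (1 to 3 higher, 0 to 8 lower), and the lines in DMSO 23 to 35. Of all genes, 24.8% to 39.3% were called in KG-1 with a library left out and 8.01% to 17.4% in MOLM-14. For the difference the share was 5.58% to 17.7%, and for the lines in DMSO 41.6% to 54.4%. In MOLM-14, median centring gave 8 calls (0 higher, 8 lower), quantile normalization 3 (0 higher), the line fitted alone 0 (0 higher, 0 lower), and no trend and no robust estimation 3 (1 lower). In the same order, 12.3%, 9.87%, 2.59% and 11.8% of all genes were called. Fitted alone, KG-1 gave 28 calls of 69, when 45.7% of all genes were called. The causes were not tested. After quantile normalization HSP90AB1 in KG-1 was at 0.0125 and HSPA8 at 0.513 on the log2 scale, opposite in sign to the values reported. Over all genes, the median change shifted by -0.12 in KG-1 and -0.15 in MOLM-14 with median centring, and by -0.10 in both with quantile normalization. In KG-1 members were called higher and lower 6 and 14 times after centring, 8 and 12 after quantile normalization and 6 and 13 after rescaling, against 8 and 11. Of all genes these settings called 14.9% and 20%, 16.4% and 19.1%, and 16.9% and 16.4%, against 19.4% and 14.3%. Same-numbered libraries correlated weakly in their deviations (0.0197 to 0.0407 in KG-1, -0.00191 to 0.1 in MOLM-14), so the numbers were not taken to pair them. Over the members alone these were -0.0651 to -0.00663 in KG-1, and in MOLM-14 0.464, 0.00825 and 0.396 for numbers 1, 2 and 3, against -0.47 and -0.366 between numbers 1 and 3. With the replicate block, KG-1 had 22 calls, MOLM-14 6 and the difference between the lines 1 (1 higher), HSPA5. Of all genes, 33%, 12% and 8.43% were called with that block. Depth limits HSPA1A, DNAJB5 and HSP90AB3P, which reach at most 1.52, 2.09 and 1.60 FPKM.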
